A study of Mus musculus with 9 samples.

Results

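The genes described here are 37 mouse genes of the lysosome and of autophagy, chosen by symbol from the 31232 genes of the deposited table. They comprise the transcription factors Tfeb and Tfe3, 5 membrane and cholesterol-handling proteins, 7 cathepsins, 11 other hydrolases and activators, 3 proton pump components and 9 autophagy genes. Of the 37, 36 had enough reads to be tested, among 15774 tested genes. Ctss, the gene of cathepsin S, had a single read in the whole series, in HSS replicate 3, and was not tested.

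RNA was sequenced from bEnd.3, an endothelial line derived from mouse brain and immortalised with the polyoma middle T antigen, so all samples are 1 immortalised line. Cells on glass coverslips were exposed to flow in a parallel-plate chamber. Shear was 0.5 to 2 dyne/cm2 in a vortex for the Vortex group (VSS in the protocol), 20 dyne/cm2 for HSS and 10 dyne/cm2 for PSS, both of these laminar, with 3 libraries each. The labels take PSS as normal shear in brain vessels, HSS as the early and Vortex as the late stage of intracranial aneurysm, which is the question behind the comparisons.

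Lysosomes are acidic organelles in which hydrolases break down material that arrives by endocytosis or by autophagy, the route that wraps cytoplasm in a double membrane and delivers it for degradation. TFEB and TFE3 are related transcription factors that bind short E-box letters in the promoters of many lysosomal and autophagy genes, and their entry into the nucleus is held back by phosphorylation through mTORC1, a kinase complex on the lysosomal surface. Endothelial cells use this system to degrade lipoproteins and other endocytosed cargo.

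Promoter sequences were read from RefSeq windows on GRCm38.p6, from 250 bases before to 50 after each gene's start. The letters TCACGTG, on either strand, lay in the windows of 9 of the 32 members that had one (28.1%), against 4.29% of 27025 genes. The core CACGTG, which TCACGTG contains, lay in 11 of 32 (34.4%), against 8.09% of genes, and the palindromic CLEAR consensus of 10 letters, which contains both, in 0 of 32, against 0.37% of genes. Of 136 other lysosome and autophagy genes with a window, 26 held TCACGTG (19.1%), 29 CACGTG (21.3%) and 2 the consensus (1.47%). The 7 members printed here held TCACGTG and were called higher in Vortex than in PSS with all 9 libraries. Capitals mark TCACGTG or its reverse complement CACGTGA. TCACGTGA holds the letters on both strands and was counted as 1 site. Each sequence is given 5′ to 3′ on the gene's own strand, and the letters describe the sequence only, not a bound site.
Lamp1, chr8:13159079-13159160, plus strand: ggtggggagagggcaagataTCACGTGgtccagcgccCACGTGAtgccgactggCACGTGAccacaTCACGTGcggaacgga
Mcoln1, chr8:3500427-3500500, plus strand: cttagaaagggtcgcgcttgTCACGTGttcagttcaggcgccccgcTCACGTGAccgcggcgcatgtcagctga
Ctsa, chr2:164833740-164833784, plus strand: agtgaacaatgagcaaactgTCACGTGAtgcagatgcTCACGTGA
Ctsd, chr7:142387899-142388077, minus strand: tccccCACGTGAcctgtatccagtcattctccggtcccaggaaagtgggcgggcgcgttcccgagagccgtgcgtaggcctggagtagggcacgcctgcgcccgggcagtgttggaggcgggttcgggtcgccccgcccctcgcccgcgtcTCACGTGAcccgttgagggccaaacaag
Gaa, chr11:119267802-119267848, plus strand: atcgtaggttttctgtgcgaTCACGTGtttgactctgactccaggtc
Glb1, chr9:114401009-114401055, plus strand: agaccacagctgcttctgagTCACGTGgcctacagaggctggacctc
Atg7, chr6:114670943-114670989, plus strand: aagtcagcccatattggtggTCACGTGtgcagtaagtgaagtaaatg
Lamp1 held 4 sites within 62 bases before its start, the most of any member.

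Libraries held 17407217 to 22965802 counts. Within a group, log2 CPM correlated across genes at 0.852 to 0.962 in Vortex, 0.992 to 0.993 in HSS and 0.977 to 0.992 in PSS (Pearson's r). Vortex replicate 2 stood apart. The 10 endothelial markers summed to 6493 CPM there, to 753 and 1155 CPM in Vortex replicates 1 and 3, to 368 to 375 CPM in HSS and to 2255 to 2823 CPM in PSS. Relative to PSS, the median log2 level of genes of low GC content was -1.41 and that of high GC content 0.90 in Vortex replicate 2. Other libraries held smaller differences of this kind. The 2 medians were -0.45 and 0.27 in Vortex replicate 3 and -0.13 and 0.18 in Vortex replicate 1. They were -0.13 to -0.11 and 0.22 in HSS, and the other way, 0.15 and -0.21, in PSS replicate 3. The labelled endothelial identity was weakly marked in HSS and, for most markers, in Vortex replicates 1 and 3. The tight junction gene Cldn5 had 2, 0 and 0 reads in HSS, against 1162, 1202 and 1110 reads in PSS. Cdh5, the gene of VE-cadherin, stood at 119 to 126 CPM in HSS, against 450 to 577 CPM in PSS. In Vortex replicates 1, 2 and 3, Cldn5 had 13, 7791 and 62 reads and Cdh5 stood at 329, 1298 and 381 CPM. Pecam1 was low in PSS too, at 12.4 to 14.2 CPM. It stood at 1.08 to 1.68 CPM in HSS and at 1.77, 1456 and 55.1 CPM in Vortex replicates 1, 2 and 3. With all 9 libraries, 8 of the 10 endothelial markers were called lower in HSS than in PSS, against 3.7% of genes. Without Vortex replicate 2, 10 were, against 13.7%. Higher in Vortex than in HSS were 9 of the 10 in both settings, against 4.37% and 13.9% of genes. Without Vortex replicate 2, 9 of the 10 endothelial markers were called lower in Vortex than in PSS, against 16.6% of genes. With all 9 libraries 0 of them were. Results are therefore given with and without Vortex replicate 2. No label describes the libraries of a group as separate cultures, and the extraction text speaks of mixed RNA, so p-values measure the spread between these libraries, which may be technical.

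Many lysosomal genes were higher under vortex flow. With all 9 libraries, 18 of the 36 tested members were called higher in Vortex than in PSS and 0 lower (edgeR's quasi-likelihood test, called at 0.05 after Benjamini-Hochberg adjustment across the whole table). Among all tested genes, 8.33% were called higher and 5.03% lower. The members' median log2 fold change was 0.69, against 0.11 over all tested genes, and 32 of 36 members had a positive value, against 56.4% of genes. Groups did not overlap for 21 members that were higher in Vortex and 1 that was lower, against 15.6% and 14.4% of genes. Without Vortex replicate 2, 23 members were called higher and 1, Ctsh, lower, against 19.7% and 16.6% of genes. The calls borrow their error from all 3 groups: with the Vortex and PSS libraries alone, 0 members passed by edgeR (0.264% of genes were called higher and 0.224% lower), 21 were under an unadjusted p of 0.05, and the smallest adjusted p was 0.0512, for Psap. Leaving out any 1 PSS library left 4, 6 or 8 members higher, any 1 HSS library 10, and Vortex replicate 1, 2 or 3 left 16, 23 or 14. Scaling by library totals ended the calls of Lamp1, Mcoln1, Ctsa, Ctsb, Glb1, Lipa, Atp6ap1 and Atg7, and removing each library's GC trend those of Lamp1, Npc2, Ctsa, Ctsb, Ctsz, Neu1, Gabarapl1, Atp6ap1 and Atg7.

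Under high laminar shear few members were called. In HSS against PSS, 2 members were higher, Lipa and Gaa, and 2 lower, Wipi1 and Ctsh (5.56% each), close to the 4.18% and 3.7% of all tested genes. The members' median log2 fold change was 0.18, against -0.00 over all genes. When Vortex replicate 2, whose spread enters the shared error, was left out, 11 were called higher and 4 lower, against 15.4% and 13.7% of genes. With the HSS and PSS libraries alone, 16 were called higher (44.4%) and 5 lower (13.9%), against 20.4% and 20.4% of genes. Without any 1 PSS or HSS library, or without Vortex replicate 3, only 1 was called higher, and without any 1 PSS or HSS library 0 were called lower. The ranges of both groups did not overlap for 19 members that were higher in HSS and 7 that were lower, against 29.9% and 26.3% of genes. The call of Gaa ended with library totals and with the GC trend removed.

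Vortex flow also differed from high laminar shear. In Vortex against HSS, 6 members were called higher, Ctsd, Hexa, Psap, Gabarapl1, Map1lc3b and Sqstm1, and 1 lower, Lipa, against 4.37% and 2.67% of all tested genes. The members' median log2 fold change was 0.52, against 0.10 over all genes. Groups did not overlap for 22 members that were higher in Vortex and 1 that was lower, against 19.5% and 16.9% of genes. Omitting Vortex replicate 2 gave 20 higher and 1 lower, against 13.9% and 10% of genes. With the Vortex and HSS libraries alone, 0 passed by edgeR (0.312% of genes were called higher and 0.126% lower), while 16 higher and 1 lower were under an unadjusted p of 0.05. The higher count fell to 0 without any 1 HSS library, to 2 without PSS replicate 1 and to 3 without PSS replicate 2. Library totals ended the calls of Psap, Map1lc3b and Sqstm1, and removal of the GC trend those of Psap, Gabarapl1 and Lipa. The 3 comparisons share libraries, so their values are set side by side and not read as independent.

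**Figure D1:**
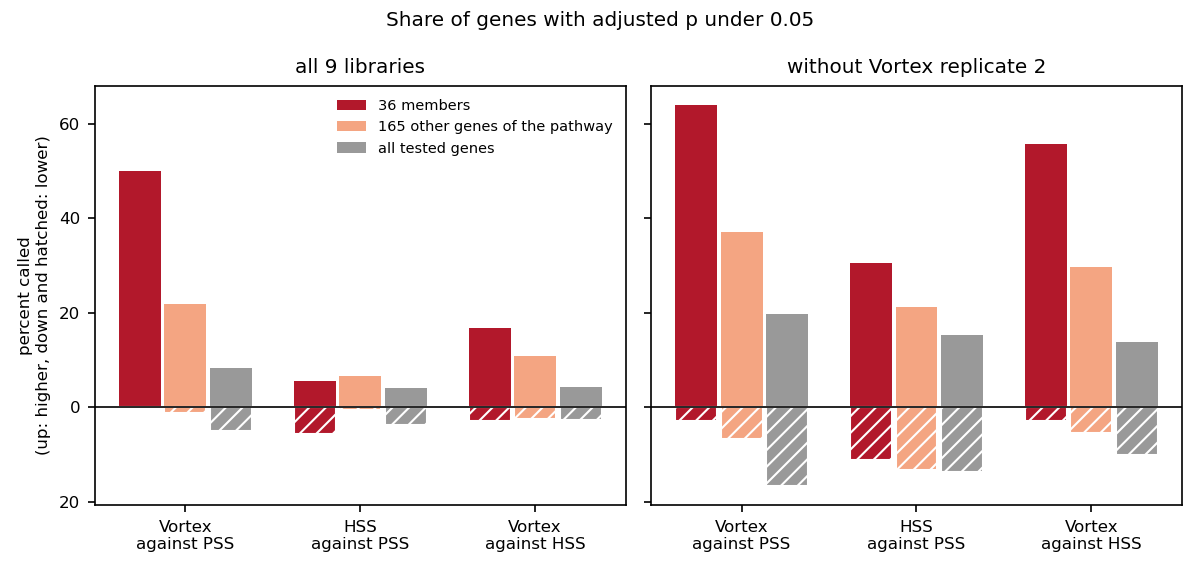
Percent of genes with adjusted p under 0.05 in each comparison, for the 36 tested members, for 165 other genes of the lysosome and autophagy pathway and for all tested genes; bars up are genes called higher and hatched bars down genes called lower. In Vortex against PSS, 50% of members stood above 21.8% of the other pathway genes and 8.33% of all tested genes.

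The members took 1.23%, 0.842% and 1.13% of all counts in Vortex replicates 1, 2 and 3, against 0.753% to 0.761% in HSS and 0.592% to 0.622% in PSS. Every Vortex library lay above every HSS library, and every HSS library above every PSS library. In these bulk samples, fewer cells of a type and less RNA per cell cannot be told apart. Per length, the most abundant members in PSS were Psap at 186 FPKM on average, Lamp1 at 173 FPKM and Sqstm1 at 158 FPKM. Among the tested members the lowest in PSS was Npc1, at 2.52 FPKM.

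Macrophage markers were examined because lysosomal genes are abundant in phagocytes. The 11 markers listed in the table, of 12 sought, summed to 77.2, 31.2 and 82.8 CPM in Vortex, 36.7 to 40.3 CPM in HSS and 11.5 to 12.9 CPM in PSS. Most of that sum came from Cd68, itself a lysosomal membrane gene, Cd14 and Csf1r. Cd68 stood at 33.2, 7.96 and 36.6 CPM in Vortex, 5.26 to 5.71 CPM in HSS and 3.69 to 4.96 CPM in PSS, and Lyz2 reached 217 reads in Vortex replicate 3. The defining leukocyte gene Ptprc had 0 reads in the Vortex libraries and at most 1 in any other, and Itgam, Aif1, Adgre1 and Fcer1g had at most 7 reads in any library. The marker Spi1 had 15, 14 and 31 reads in Vortex, 8, 10 and 16 reads in HSS and 8, 4 and 2 reads in PSS. Of the 5 macrophage markers with enough reads, 4 were called higher in Vortex than in PSS, 2 in HSS than in PSS and 1 in Vortex than in HSS. Among all tested genes, 8.33%, 4.18% and 4.37% were called higher, in that order. The 6 fibroblast markers summed to 633, 56.4 and 542 CPM in Vortex, 318 to 332 CPM in HSS and 272 to 341 CPM in PSS. The sum was mostly Col1a1 and Pdgfra, which went different ways. Col1a1 stood at 124, 34.3 and 165 CPM in Vortex, 240 to 252 CPM in HSS and 189 to 263 CPM in PSS. Pdgfra stood at 467, 21.4 and 332 CPM in Vortex, 68.0 to 73.4 CPM in HSS and 69.4 to 76.4 CPM in PSS. Dcn was also higher in Vortex replicates 1 and 3 (40.9 and 44.9 CPM). Col1a2, Lum and Postn had at most 1.41 CPM in any library. The part of either list in the members' differences was not tested.

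**Figure D2:**
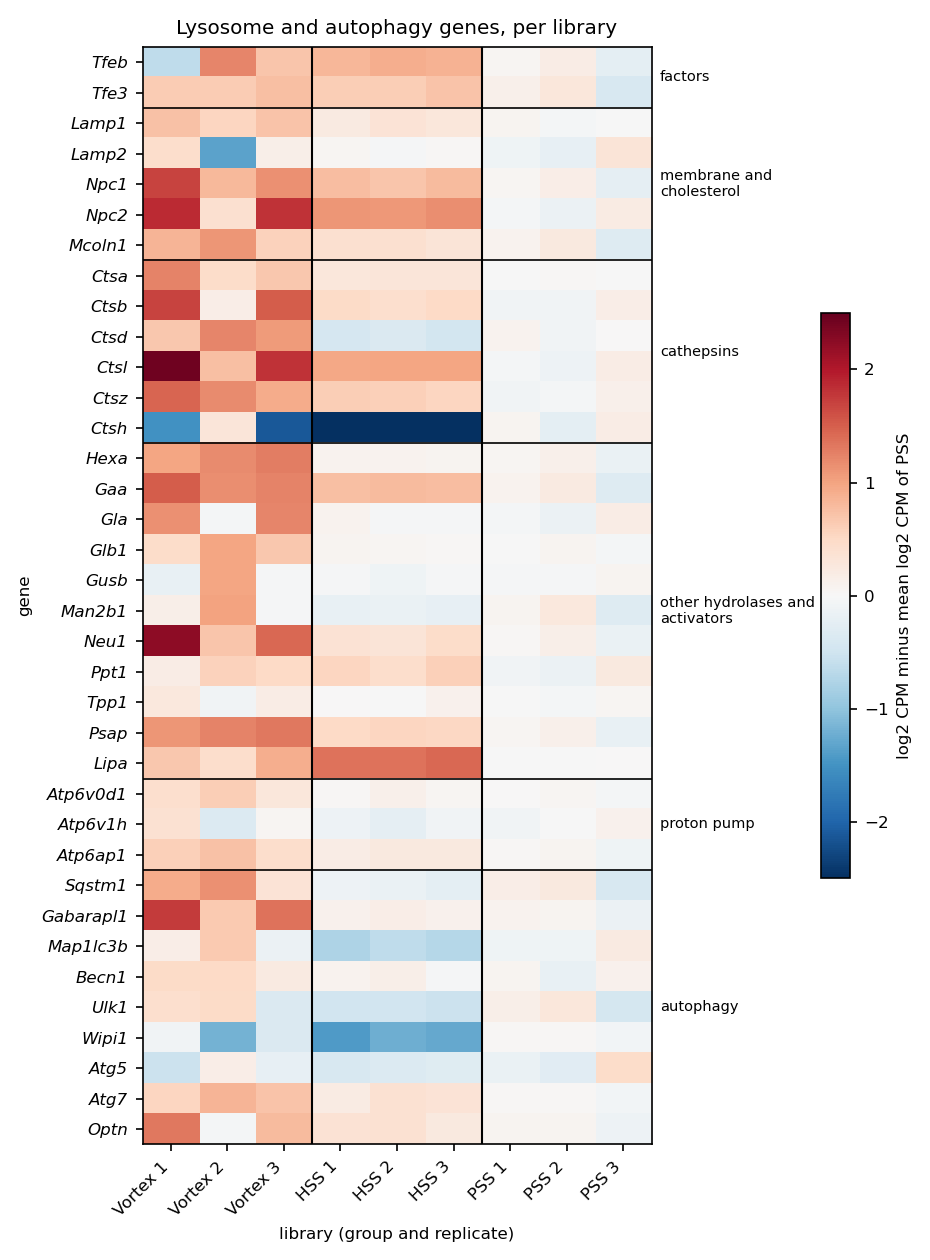
Log2 CPM of each tested member minus its mean log2 CPM in PSS, with genes in rows grouped by role and the 9 libraries in columns (Vortex, HSS, PSS) and the colour scale clipped, so that Ctsh in HSS is saturated. Most rows are red in the Vortex columns. Vortex replicate 2 departs from its group for several genes, among them Lamp2, Ctsh, Gusb, Man2b1, Npc2, Ctsb, Ctsl, Gla and Wipi1.

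The transcription factors are given first. Tfeb stood at 19.7, 71.8 and 49.5 CPM in Vortex replicates 1, 2 and 3, at 54.4, 57.6 and 56.0 CPM in HSS and at 31.8, 35.0 and 25.8 CPM in PSS. Its Vortex values ran from below the lowest to above the highest value of both other groups, while the HSS libraries all lay above the PSS libraries. Tfeb had the highest GC content of the members, 63.2%. For Tfe3 the values were 68.1, 68.1 and 73.3 CPM in Vortex, 66.9, 66.8 and 71.4 CPM in HSS and 47.6, 52.8 and 33.1 CPM in PSS. Tfe3 in Vortex and in HSS lay above PSS without overlap. Neither factor passed the test with all 9 libraries. For Tfeb the log2 fold change was 0.61 ± 0.38 (SE) in Vortex against PSS (adjusted p = 0.329) and 0.86 ± 0.39 in HSS against PSS (adjusted p = 0.218). For Tfe3 it was 0.65 ± 0.20 in Vortex against PSS (adjusted p = 0.0591) and 0.62 ± 0.20 in HSS against PSS (adjusted p = 0.0942). With Vortex replicate 2 left out, both factors passed in HSS against PSS (adjusted p = 0.0403 for Tfeb and 0.0185 for Tfe3), and Tfe3 in Vortex against PSS (adjusted p = 0.0171).

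Of the 5 membrane and cholesterol genes, 4 rose in Vortex against PSS and 0 were called in HSS against PSS. Lamp1, a heavily glycosylated protein that lines the lysosomal membrane, stood at 734, 641 and 727 CPM in Vortex, 519, 563 and 535 CPM in HSS and 463, 425 and 439 CPM in PSS. Mcoln1, the calcium channel TRPML1, stood at 58.1, 69.7 and 48.2 CPM in Vortex, 43.0, 42.5 and 40.3 CPM in HSS and 34.3, 38.1 and 26.1 CPM in PSS. Neither gene's Vortex range met the range of HSS or of PSS. Both rose in Vortex against PSS, Lamp1 by 0.66 ± 0.14 on the log2 scale (adjusted p = 0.0174) and Mcoln1 by 0.84 ± 0.21 (adjusted p = 0.0306). Lamp1 passed in 4 of 9 fits that left out 1 library (adjusted p up to 0.0778, lost without PSS replicate 1 or 2 or any HSS library) and Mcoln1 in 3 of 9 (adjusted p up to 0.112, lost without any 1 PSS or HSS library). Lamp2, the other main lysosomal membrane glycoprotein, did not pass in any comparison. It ranged over 117 to 399 CPM in Vortex, 287 to 302 CPM in HSS and 253 to 364 CPM in PSS, with the lowest value in Vortex replicate 2. Lamp2 is a gene of low GC content (38.7%). Removing the GC trend changed the sign of its log2 fold change in Vortex against PSS, to 0.47.

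Npc1 and Npc2 hand cholesterol freed in the lysosome to the rest of the cell, Npc2 as the soluble and Npc1 as the membrane protein. Npc1 stood at 87.2, 47.4 and 59.4 CPM in Vortex, 45.9, 43.8 and 46.8 CPM in HSS and 27.9, 30.3 and 23.1 CPM in PSS. Npc2 stood at 769, 280 and 742 CPM in Vortex, 456, 448 and 474 CPM in HSS and 204, 191 and 245 CPM in PSS. The PSS libraries were the lowest for both, and for Npc2 Vortex replicate 2 lay below HSS. Npc1 rose in Vortex against PSS by 1.25 ± 0.24 on the log2 scale (adjusted p = 0.0116) and Npc2 by 1.49 ± 0.34 (adjusted p = 0.022). Npc1 lost the call without PSS replicate 1 (adjusted p = 0.0602), and Npc2 without any 1 PSS library or without Vortex replicate 3 (adjusted p up to 0.0978). The HSS values against PSS were 0.75 ± 0.24 for Npc1 (adjusted p = 0.0943) and 1.11 ± 0.33 for Npc2 (adjusted p = 0.0806). These HSS differences passed without Vortex replicate 2, with adjusted p = 0.0075 for Npc1 and 1.1e-04 for Npc2.

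Cathepsins are the main lysosomal proteases. Of the 6 tested cathepsin genes, 5 rose in Vortex against PSS, and the other, Ctsh, fell in HSS against PSS. The cysteine protease gene Ctsl stood at 2119, 662 and 1373 CPM in Vortex, 763, 777 and 778 CPM in HSS and 377, 360 and 442 CPM in PSS. Ctsb, of another cysteine protease, stood at 2744, 952 and 2407 CPM in Vortex, 1181, 1139 and 1201 CPM in HSS and 795, 802 and 954 CPM in PSS. For both genes Vortex replicate 2 was far below the other Vortex libraries, and for Ctsb it fell within the PSS range. Ctsl rose in Vortex against PSS by 1.82 ± 0.35 on the log2 scale (adjusted p = 0.0121), a 3.52-fold difference and the largest among the members, and Ctsb by 1.26 ± 0.33 (adjusted p = 0.038). Ctsl passed in 7 of 9 fits that left out 1 library (adjusted p up to 0.0637, lost without PSS replicate 1 or 2), while Ctsb passed only without Vortex replicate 2 (adjusted p up to 0.137 in the others). The log2 fold changes in HSS against PSS were 0.98 ± 0.34 for Ctsl (adjusted p = 0.124) and 0.46 ± 0.33 for Ctsb (adjusted p = 0.447). Both passed there without Vortex replicate 2, with adjusted p = 0.00145 for Ctsl and 0.015 for Ctsb.

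Ctsd encodes the aspartic protease cathepsin D. It stood at 271, 395 and 352 CPM in Vortex, 127, 133 and 123 CPM in HSS and 181, 159 and 170 CPM in PSS. Vortex was the highest group and HSS the lowest, with no overlap. Ctsd rose in Vortex by 1.00 ± 0.18 on the log2 scale against PSS (adjusted p = 0.00961) and by 1.41 ± 0.18 against HSS (adjusted p = 0.00825). The first call was lost without PSS replicate 1 (adjusted p = 0.0514) and the second without any 1 HSS library (adjusted p up to 0.0781). In HSS against PSS its log2 fold change was -0.41 ± 0.18 (adjusted p = 0.205), which passed without Vortex replicate 2 (adjusted p = 0.0343).

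Ctsz encodes a carboxypeptidase and Ctsa a carboxypeptidase that also protects the enzymes of Glb1 and Neu1. Ctsz stood at 517, 430 and 360 CPM in Vortex, 290, 286 and 274 CPM in HSS and 178, 183 and 208 CPM in PSS. Ctsa stood at 656, 382 and 440 CPM in Vortex, 336, 340 and 342 CPM in HSS and 274, 282 and 275 CPM in PSS. Both genes were ordered Vortex, HSS, PSS from high to low with no overlap. Ctsz rose in Vortex against PSS by 1.20 ± 0.18 on the log2 scale (adjusted p = 0.00509) and kept an adjusted p of at most 0.0407 in all 9 fits that left out 1 library. Ctsa rose by 0.83 ± 0.21 (adjusted p = 0.0304) and passed in 2 of 9 such fits, without Vortex replicate 2 or 3 (adjusted p up to 0.12 in the others).

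Ctsh, of the aminopeptidase cathepsin H, went the other way. It stood at 6.05, 21.4 and 4.00 CPM in Vortex, 2.88, 2.69 and 1.84 CPM in HSS and 18.2, 14.5 and 19.7 CPM in PSS. Vortex replicate 2 was the highest of all libraries, while the other Vortex libraries lay between HSS and PSS. Ctsh fell in HSS against PSS by 2.82 ± 0.59 on the log2 scale (adjusted p = 0.0218), a 7.05-fold difference. It lost that call without any 1 library of PSS or HSS (adjusted p up to 0.113). Its log2 fold change in Vortex against PSS was -0.73 ± 0.54 (adjusted p = 0.406) with all libraries and -1.81 without Vortex replicate 2 (adjusted p = 7.3e-04).

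**Figure D3:**
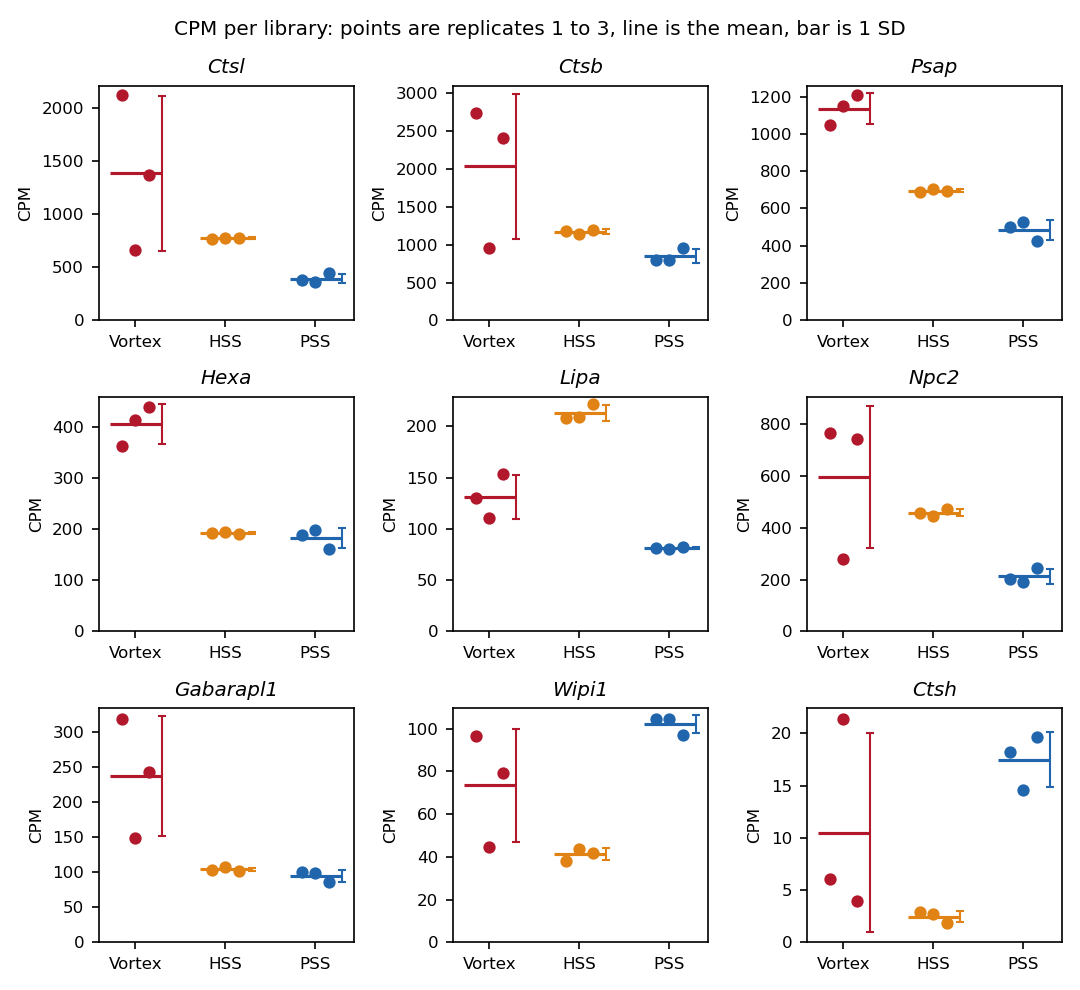
CPM of 9 members in every library, with points for replicates 1 to 3, a line at the mean and a bar of 1 SD; groups run Vortex, HSS, PSS and each axis starts at 0. Psap and Hexa hold together across the Vortex libraries, Lipa is highest in HSS, Wipi1 and Ctsh are lowest in HSS, and Vortex replicate 2, the middle point, is low for Ctsl, Ctsb and Npc2.

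Among the 11 other hydrolases and activators, 6 rose in Vortex against PSS and 2 in HSS against PSS. Psap, the precursor of the saposins that help enzymes reach sphingolipids, stood at 1046, 1149 and 1209 CPM in Vortex, 686, 706 and 694 CPM in HSS and 501, 529 and 427 CPM in PSS. Hexa, the alpha subunit of the hexosaminidase that degrades the ganglioside GM2, stood at 361, 413 and 439 CPM in Vortex, 193, 194 and 191 CPM in HSS and 189, 198 and 161 CPM in PSS. Gaa, the enzyme that breaks down glycogen in lysosomes, stood at 495, 389 and 411 CPM in Vortex, 293, 300 and 299 CPM in HSS and 186, 204 and 139 CPM in PSS. For these 3 genes Vortex replicate 2 lay within or close to the range of the other Vortex libraries, and no Vortex library reached HSS or PSS values. Hexa in HSS overlapped PSS, whereas Psap and Gaa in HSS lay above PSS.

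Psap rose in Vortex against PSS by 1.22 ± 0.15 on the log2 scale (adjusted p = 0.00319), Hexa by 1.15 ± 0.16 (adjusted p = 0.00458) and Gaa by 1.29 ± 0.19 (adjusted p = 0.00508). With Ctsz, these were the members called in all 9 fits that left out 1 library, with adjusted p at most 0.0317 for Psap, 0.0346 for Hexa and 0.0352 for Gaa. Against HSS, Hexa rose in Vortex by 1.07 ± 0.16 (adjusted p = 0.0112) and Psap by 0.71 ± 0.15 (adjusted p = 0.0285). These calls were lost without any 1 HSS library (adjusted p up to 0.085 for Hexa and 0.152 for Psap) and, for Psap, without PSS replicate 1 or Vortex replicate 3. Gaa also rose in HSS against PSS, by 0.75 ± 0.19 (adjusted p = 0.042), but lost that call without any 1 PSS or HSS library or without Vortex replicate 3 (adjusted p up to 0.157).

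Lipa, the acid lipase that frees cholesterol and fatty acids from the esters of endocytosed lipoproteins, was highest in HSS. It stood at 130, 110 and 154 CPM in Vortex, 208, 209 and 222 CPM in HSS and 81.1, 80.9 and 82.6 CPM in PSS. Vortex was intermediate and PSS the lowest, with no overlap between the 3 groups. Lipa rose in HSS against PSS by 1.39 ± 0.17 on the log2 scale (adjusted p = 0.00302), 2.61-fold, and passed under all 18 alternatives tried. It rose in Vortex against PSS by 0.69 ± 0.17 (adjusted p = 0.0298), a call lost without any 1 PSS or HSS library or without Vortex replicate 3 (adjusted p up to 0.124). It was also the only member called lower in Vortex than in HSS, by -0.70 ± 0.17 (adjusted p = 0.0423), which was lost without PSS replicate 1 or 2 or any HSS library (adjusted p up to 0.19).

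Neu1, the sialidase that removes terminal sialic acids, stood at 218, 74.3 and 124 CPM in Vortex, 58.9, 57.3 and 63.2 CPM in HSS and 46.9, 50.6 and 41.1 CPM in PSS. Glb1, the lysosomal beta-galactosidase, stood at 64.6, 92.2 and 75.1 CPM in Vortex, 48.7, 48.7 and 47.9 CPM in HSS and 46.4, 48.8 and 45.2 CPM in PSS. All Vortex libraries were above HSS and PSS for both genes, with Vortex replicate 2 the lowest of them for Neu1 and the highest for Glb1. Neu1 rose in Vortex against PSS by 1.59 ± 0.34 on the log2 scale (adjusted p = 0.0175) and Glb1 by 0.72 ± 0.18 (adjusted p = 0.0286). Neu1 was lost without any 1 PSS library (adjusted p up to 0.0785), and Glb1 without any 1 PSS or HSS library or without Vortex replicate 3 (adjusted p up to 0.123).

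Of the other 5 hydrolases, 0 passed with all 9 libraries. Gla, an alpha-galactosidase, ranged over 57.5 to 137 CPM in Vortex, 58.0 to 62.8 CPM in HSS and 53.5 to 67.4 CPM in PSS. It was called higher in Vortex than in PSS only without Vortex replicate 2, its lowest Vortex library (log2 fold change 1.18, adjusted p = 1.6e-04). Gusb, a beta-glucuronidase, ranged over 116 to 261 CPM in Vortex, 123 to 129 CPM in HSS and 129 to 138 CPM in PSS. Man2b1, an alpha-mannosidase, ranged over 57.1 to 117 CPM in Vortex, 51.1 to 52.1 CPM in HSS and 46.8 to 70.3 CPM in PSS. Vortex replicate 2 was the highest library for both. Ppt1, a thioesterase that removes palmitate from proteins, ranged over 71.3 to 94.1 CPM in Vortex, 85.4 to 94.7 CPM in HSS and 56.8 to 74.0 CPM in PSS. Tpp1, a tripeptidyl peptidase, was nearly level, with 153 to 195 CPM in Vortex, 161 to 173 CPM in HSS and 156 to 168 CPM in PSS.

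The proton pump acidifies the lysosome. Atp6ap1, an accessory subunit, stood at 165, 181 and 148 CPM in Vortex, 125, 130 and 129 CPM in HSS and 111, 115 and 101 CPM in PSS. Its groups did not overlap. It rose in Vortex against PSS by 0.59 ± 0.16 on the log2 scale (adjusted p = 0.0382), but passed in only 2 of 9 fits that left out 1 library, without Vortex replicate 2 or 3 (adjusted p up to 0.139 in the others). Atp6v0d1, a subunit of the membrane part, ranged over 106 to 133 CPM in Vortex, 88.3 to 94.4 CPM in HSS and 84.0 to 89.3 CPM in PSS (adjusted p = 0.0968 in Vortex against PSS). Atp6v1h, a subunit of the cytosolic part, ranged over 84.1 to 139 CPM in Vortex, 91.9 to 100 CPM in HSS and 101 to 115 CPM in PSS, and did not pass in any comparison.

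Of the 9 autophagy genes, 2 rose in Vortex against PSS, 1 fell in HSS against PSS and 3 rose in Vortex against HSS. Gabarapl1, one of the small proteins conjugated to the autophagosome membrane, stood at 320, 149 and 244 CPM in Vortex, 103, 107 and 102 CPM in HSS and 100, 99.8 and 85.7 CPM in PSS. Map1lc3b, the LC3B protein of the same family, stood at 103, 144 and 83.1 CPM in Vortex, 53.7, 59.3 and 56.0 CPM in HSS and 85.3, 84.9 and 107 CPM in PSS. Sqstm1, the receptor p62 that links cargo to them, stood at 942, 1088 and 629 CPM in Vortex, 450, 440 and 418 CPM in HSS and 550, 584 and 374 CPM in PSS. Gabarapl1 was highest in Vortex, and its HSS libraries lay slightly above PSS without overlap, while Map1lc3b was lowest in HSS and overlapped between Vortex and PSS. For Sqstm1 the Vortex libraries were the highest and HSS lay inside the PSS range.

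Against HSS, Vortex was higher by 1.19 ± 0.26 on the log2 scale for Gabarapl1 (adjusted p = 0.0315), 0.97 ± 0.23 for Map1lc3b (adjusted p = 0.0373) and 1.02 ± 0.24 for Sqstm1 (adjusted p = 0.0387). All 3 calls were lost without PSS replicate 1 or 2 or any HSS library, and that of Gabarapl1 also without Vortex replicate 3 (adjusted p up to 0.149, 0.175 and 0.169 in that order). Against PSS, Gabarapl1 rose in Vortex by 1.32 ± 0.26 (adjusted p = 0.0129), a call lost without any 1 PSS library (adjusted p up to 0.0621). The values in Vortex against PSS were 0.25 ± 0.22 for Map1lc3b (adjusted p = 0.5) and 0.82 ± 0.24 for Sqstm1 (adjusted p = 0.0542). Map1lc3b had in HSS against PSS a log2 fold change of -0.72 ± 0.23 (adjusted p = 0.0894), which passed without Vortex replicate 2 (adjusted p = 0.00363).

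Wipi1 binds the lipid phosphatidylinositol 3-phosphate on the forming autophagosome. It stood at 96.4, 44.6 and 79.3 CPM in Vortex, 38.3, 43.8 and 41.8 CPM in HSS and 104, 104 and 97.1 CPM in PSS. The 3 groups did not overlap, and Vortex replicate 2 lay next to HSS. Wipi1 fell in HSS against PSS by 1.30 ± 0.26 on the log2 scale (adjusted p = 0.0196), 2.47-fold, and lost that call without any 1 library of PSS or HSS (adjusted p up to 0.102). In Vortex against PSS the log2 fold change was -0.47 ± 0.26 (adjusted p = 0.258).

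Atg7, the activating enzyme of the conjugation steps, stood at 89.7, 111 and 102 CPM in Vortex, 71.4, 81.0 and 78.6 CPM in HSS and 63.7, 63.8 and 59.2 CPM in PSS. The groups were ordered Vortex, HSS, PSS with no overlap. Atg7 rose in Vortex against PSS by 0.70 ± 0.16 on the log2 scale (adjusted p = 0.0236), a call lost without any 1 PSS or HSS library or without Vortex replicate 3 (adjusted p up to 0.106). The remaining autophagy genes did not pass with all 9 libraries. Optn, the receptor optineurin, ranged over 34.4 to 88.0 CPM in Vortex, 41.9 to 46.3 CPM in HSS and 32.4 to 37.2 CPM in PSS. Becn1, the Beclin 1 subunit of the lipid kinase that starts the membrane, ranged over 72.4 to 87.4 CPM in Vortex, 60.9 to 68.6 CPM in HSS and 54.7 to 67.3 CPM in PSS. Ulk1, the kinase that initiates autophagy, ranged over 34.5 to 61.3 CPM in Vortex, 30.6 to 31.8 CPM in HSS and 32.7 to 54.1 CPM in PSS. For Atg5, part of the conjugation complex, the ranges were 31.0 to 50.6 CPM in Vortex, 34 to 36.7 CPM in HSS and 36.9 to 61.9 CPM in PSS. Of these 4, only Optn passed in Vortex against PSS without Vortex replicate 2 (log2 fold change 1.07, adjusted p = 8.8e-04).

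**Figure D4:**
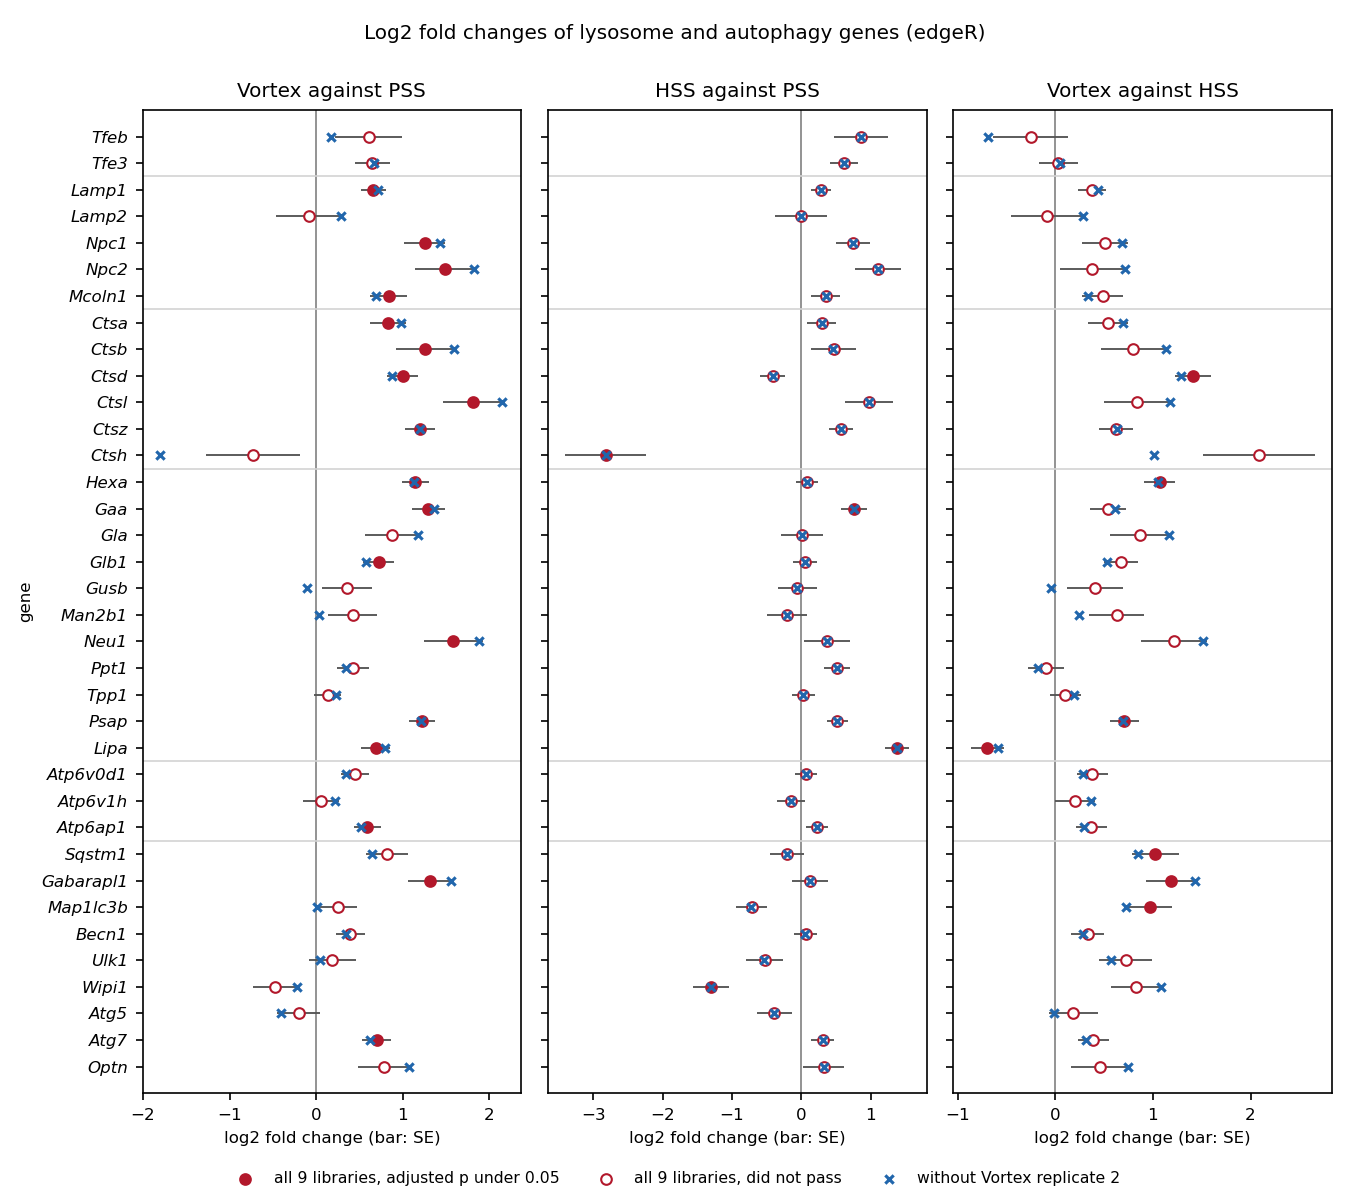
Log2 fold change of each tested member in 3 comparisons, with the SE as a bar; filled circles had an adjusted p under 0.05 with all 9 libraries, open circles did not, and crosses are values without Vortex replicate 2. In Vortex against PSS, 18 filled circles lie right of 0 and none left of it, while Ctsh shifts from -0.73 to -1.81 without that library.

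The promoter letters printed above were set beside the calls as a description. Of the 9 tested members whose window held TCACGTG, 7 were called higher in Vortex than in PSS, against 9 of 22 tested members whose window did not hold it. The medians of the log2 fold change were 0.83 with the letters and 0.63 without. Without Vortex replicate 2 the counts were 9 of 9 with the letters and 12 of 22 without. Called higher in HSS against PSS were 1 of 9 and 1 of 22, and without Vortex replicate 2 1 of 9 and 8 of 22. Called higher in Vortex against HSS were 1 of 9 and 5 of 22, and without that library 6 of 9 and 11 of 22. Lipa and Wipi1, which had opposite differences in HSS, both had a window without these letters. The 2 members with the letters that were not called in Vortex against PSS with all libraries were Gla and Atp6v0d1.

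The rest of the pathway was counted from lists of 169 other genes, of which 165 were tested. Called higher in Vortex than in PSS were 36 of them (21.8%), and 2 were lower, with a median log2 fold change of 0.38. The counts were 11 higher and 1 lower in HSS against PSS, and in Vortex against HSS 18 were higher and 4 lower. Without Vortex replicate 2 the counts were 61 and 11 in Vortex against PSS, 35 and 22 in HSS against PSS, and 49 and 9 in Vortex against HSS. Over all tested genes, the shares with all 9 libraries were 8.33% higher and 5.03% lower in Vortex against PSS. They were 4.18% and 3.7% in HSS against PSS and 4.37% and 2.67% in Vortex against HSS. The counts of the separate lists below are to be set beside these shares. Shares without Vortex replicate 2 are those given above. Leaving out any 1 PSS library gave 11, 20 or 22 higher in Vortex against PSS, and any 1 HSS library 22. The HSS against PSS count was 3 or 4 higher without any 1 library of PSS or HSS, and that of Vortex against HSS at most 1 without any 1 HSS library and 7 without PSS replicate 1. Of the calls of a higher level, 11 in Vortex against PSS and 3 in HSS against PSS held in all 9 fits that left out 1 library, and 0 in Vortex against HSS. Among the calls printed for these genes, removing the GC trend ended those of Naglu, Galns, Ids, Cd63, Atp6v0b, Plekhm1, Foxo3, Tfec and Sesn2 in Vortex against PSS, of Foxo3, Sesn2 and Tcirg1 in HSS against PSS, and of Gabarap in Vortex against HSS. Library totals ended the calls of Foxo3 and Tfec in Vortex against PSS, and of Foxo3 and Tcirg1 in HSS against PSS.

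Other lysosomal hydrolases followed the members in Vortex. Of 32 tested, 10 rose and 1 fell against PSS, led by Naglu, which acts on heparan sulfate (log2 fold change 1.14 ± 0.18, adjusted p = 0.006), Galns, which acts on keratan sulfate (1.10 ± 0.18, adjusted p = 0.00668), and the carboxypeptidase Scpep1 (1.46 ± 0.24, adjusted p = 0.00728). The gene that fell was Ids, an iduronate sulfatase (-0.89 ± 0.16, adjusted p = 0.0102), named after its value was seen. Against HSS, 6 rose and 1 fell in Vortex. The protease gene Lgmn stood at 277, 119 and 276 CPM in Vortex against 61.8, 63.7 and 66.2 CPM in HSS (1.81 ± 0.31, adjusted p = 0.0158). Against PSS, 2 rose and 0 fell in HSS: the sulfatase gene Arsb (0.86 ± 0.17, adjusted p = 0.0177) and the phospholipase gene Pla2g15 (0.86 ± 0.18, adjusted p = 0.02). Ids lost its call without PSS replicate 1, Lgmn without any 1 HSS library, and Arsb and Pla2g15 without any 1 library of PSS or HSS.

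Of 24 tested membrane proteins and channels, 7 rose and 0 fell in Vortex against PSS, and 2 rose and 1 fell in HSS against PSS. Slc11a2, an iron transporter, stood at 204, 144 and 174 CPM in Vortex, 167, 168 and 165 CPM in HSS and 58.3, 59.3 and 52.7 CPM in PSS. Its log2 fold change was 1.62 ± 0.18 in Vortex (adjusted p = 0.00242) and 1.55 ± 0.18 in HSS (adjusted p = 0.00222), each against PSS. Slc11a1, a metal transporter known from phagocytes, stood at 22.3, 2.57 and 26.3 CPM in Vortex, 23.3, 20.4 and 20.1 CPM in HSS and 0.505, 0.681 and 0.758 CPM in PSS. Against PSS it rose by 4.70 ± 0.76 in Vortex (adjusted p = 0.00703) and by 5.02 ± 0.77 in HSS (adjusted p = 0.00646). The tetraspanin gene Cd63 rose in Vortex by 1.20 ± 0.18 against PSS (adjusted p = 0.00544). Laptm4b, a lysosomal membrane protein, fell in HSS against PSS by 0.99 ± 0.18 (adjusted p = 0.0135), a call lost without PSS replicate 1 or any 1 HSS library.

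Of 19 other proton pump subunits tested, 6 rose and 0 fell in Vortex against PSS, and 1, Tcirg1, rose in HSS against PSS (0.85 ± 0.22, adjusted p = 0.0437). Atp6v0b, of the membrane part, stood at 118, 67.6 and 70.0 CPM in Vortex, 30.5, 34.7 and 30.1 CPM in HSS and 32.0, 24.7 and 32.4 CPM in PSS (1.52 ± 0.25 in Vortex against PSS, adjusted p = 0.00719). Against HSS 3 rose and 1 fell in Vortex, with Atp6v1b2 up by 0.97 ± 0.16 (adjusted p = 0.0138). Atp6v1b2 lost that call without any 1 HSS library, and Tcirg1 its call without any 1 library of PSS or HSS or without Vortex replicate 3.

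Of the regulators, Foxo3, a forkhead factor, rose against PSS in Vortex (1.01 ± 0.25, adjusted p = 0.029) and in HSS (0.96 ± 0.25, adjusted p = 0.0475). In Vortex it passed in 1 of 9 fits that left out 1 library, without Vortex replicate 2, and in HSS in 2 of 9, without Vortex replicate 1 or 2. Tfec, a relative of Tfeb, was called higher in Vortex than in PSS (adjusted p = 0.0498) and than in HSS (adjusted p = 0.0424), but its values were 1.01, 127 and 9.58 CPM in Vortex, 0.631 to 0.707 CPM in HSS and 1.26 to 2.13 CPM in PSS, with most of its reads in Vortex replicate 2. Without that library the call against PSS was lost (adjusted p = 0.0757) and the call against HSS held (adjusted p = 0.0148), and without any 1 library of PSS or HSS neither call held. Of 23 genes around mTORC1 at the lysosome, 3 rose and 1 fell in Vortex against PSS, against 8.33% and 5.03% of all tested genes. In HSS against PSS 1 rose and 0 fell, against 4.18% and 3.7%. Sesn2, a leucine sensor that restrains mTORC1, rose against PSS in Vortex (1.25 ± 0.24, adjusted p = 0.0112) and in HSS (1.09 ± 0.24, adjusted p = 0.0254). Its relative Sesn3 stood at 71.6, 40.0 and 100.4 CPM in Vortex, 206, 206 and 201 CPM in HSS and 202, 212 and 170 CPM in PSS, and fell in Vortex by 1.46 ± 0.30 against PSS (adjusted p = 0.0141). The Vortex call of Sesn2 was lost without PSS replicate 1, its HSS call without any 1 library of PSS or HSS, and the call of Sesn3 without PSS replicate 1 or 2.

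Of 21 other genes of autophagy initiation, 5 rose and 0 fell in Vortex against PSS, and 2 rose and 0 fell in HSS against PSS. Rubcn, known as a negative regulator of autophagosome maturation, rose in Vortex by 1.16 ± 0.17 (adjusted p = 0.00519) and in HSS by 0.82 ± 0.17 (adjusted p = 0.0214), each against PSS. Of 12 conjugation genes, 0 passed by edgeR in Vortex against PSS or in HSS against PSS, and Gabarap rose in Vortex against HSS (0.83 ± 0.18, adjusted p = 0.0296). The median log2 fold change of the 12 in Vortex against PSS was 0.10, against 0.11 over all tested genes. Of 17 receptors and fusion genes, 2 rose in Vortex against PSS, Tecpr1 (1.37 ± 0.22, adjusted p = 0.00618) and Plekhm1 (1.24 ± 0.23, adjusted p = 0.0106), which both act where autophagosomes meet lysosomes, and Epg5, of the same step, rose in HSS against PSS (0.99 ± 0.20, adjusted p = 0.0179). The HSS call of Rubcn was lost without any 1 library of PSS or HSS, that of Gabarap without PSS replicate 1, any 1 HSS library or Vortex replicate 3, and that of Epg5 without PSS replicate 1 or 3 or any 1 HSS library.

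Of 9 genes that sort enzymes to the lysosome, 1 rose in HSS against PSS, Gnptab, which starts the mannose 6-phosphate tag. It stood at 60.9, 33.7 and 73.3 CPM in Vortex, 138, 134 and 139 CPM in HSS and 40.3, 44.0 and 32.0 CPM in PSS. HSS was the highest group, and Vortex overlapped PSS. Gnptab rose in HSS against PSS by 1.82 ± 0.28 on the log2 scale (adjusted p = 0.00653) and was lower in Vortex than in HSS by -1.29 ± 0.28 (adjusted p = 0.0296), a call lost without PSS replicate 1 or 2 or any 1 HSS library. Of 3 tested cystatin genes, whose products inhibit cathepsins, Cstb rose in Vortex against PSS by 1.27 ± 0.26 (adjusted p = 0.0154), which was lost without PSS replicate 1 or 2.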

How the data were processed

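The deposited table holds read counts and FPKM per gene for 9 libraries. Per the submitters' processing notes, HISAT2, HTSeq 0.13.5 and the build GRCm39 were used to make the deposited counts; how strand was handled is not stated there, so reads of overlapping antisense genes cannot be told apart. The deposited FPKM values imply 1 length per gene in 100% of 27767 genes (relative tolerance 1e-06), and were used only to compare levels between genes. Libraries were grouped by their labels.

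Counts were fitted with edgeR 4.0.16 (R 4.3.3): TMM scaling, a filter on low counts (15774 of 31232 genes kept), robust quasi-likelihood dispersions and 1 mean per group over all 9 libraries. Adjusted p-values are Benjamini-Hochberg over all tested genes, and a gene was called at adjusted p under 0.05. CPM use TMM-scaled totals, and the log2 CPM behind the correlations and the GC medians a prior count of 2. Log2 fold changes are those of the edgeR fit, and the SE is the size of the log2 fold change divided by the root of the F statistic. Over all genes the biological coefficient of variation was 0.35. With 3 against 3 libraries an exact permutation test cannot go below p = 0.1.

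All 37 members are named; libraries are given one by one for Tfeb, Tfe3 and the members called with all 9 libraries, and other pathway genes are named from among the 3 called genes of smallest p per list and comparison, not all of which are printed. The members, lists and tests were chosen with earlier results of these data known. For each comparison 18 alternatives were run, including limma 3.58.1 (voom with sample quality weights), DESeq2 1.42.0, removal of each library's GC trend (GC known for 98.5% of tested genes) and leaving out each library. The fit was tested on simulated data with the same, smaller spread for every gene and no outlying library. That test says nothing about calls that hang on Vortex replicate 2. A withheld result is not reported here.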

Additional observations from a re-analysis of the deposited data

How the results depend on the processing

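Members called in the text, higher and lower, moved as follows. DESeq2 size factors changed no count. With library totals, 1 was higher in HSS against PSS, 10 in Vortex against PSS and 3 in Vortex against HSS; this scaling moved the median log2 fold change of all genes to -0.06 in Vortex against PSS, where it was 0.11 with TMM, and to -0.03 in Vortex against HSS, where it was 0.10, while the members' medians were 0.52 and 0.38. With no filter beyond 1 count (more genes tested), the counts were 1, 11 and 3 higher in that order, and 0 lower in Vortex against HSS. The DESeq2 Wald test gave 7 higher in HSS against PSS and 12 in Vortex against HSS. The limma-voom fit gave 18 higher and 8 lower in HSS against PSS, 3 lower in Vortex against PSS and 23 higher in Vortex against HSS. With only the 6 libraries compared there were 16 higher and 5 lower in HSS against PSS, 0 higher in Vortex against PSS, and 0 higher and 0 lower in Vortex against HSS. With the GC trend removed, 4 were lower in HSS against PSS, 11 higher in Vortex against PSS and 0 lower in Vortex against HSS. Apart from the constructions named, the cause was not tested.

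Same-numbered libraries did not deviate together (correlations of -0.123 to 0.118). The labels do not say whether replicate numbers mark a shared culture or day, and these correlations cannot show it. With the replicate block, 1 was higher in HSS against PSS, 12 in Vortex against PSS, and 2 higher and 0 lower in Vortex against HSS; with the block and the GC trend removed, 1 was lower in HSS against PSS, 4 higher in Vortex against PSS, and 1 higher and 0 lower in Vortex against HSS.

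Leaving out 1 library gave 1 to 11 higher and 0 to 4 lower in HSS against PSS, 4 to 23 higher and 0 to 1 lower in Vortex against PSS, and 0 to 20 higher and 0 to 1 lower in Vortex against HSS. Of 1944 member values, 59 changed sign; 43 of those were of uncalled members and by less than 1 SE. The other 16 follow, none of a member called with all libraries in that comparison. In Vortex against PSS, Lamp2 became 0.47 with the GC trend removed and 0.46 with the block too, Ulk1 -0.24 and -0.26 in those settings and -0.44 by limma-voom (adjusted p = 0.0129), and Atg5 0.14 and 0.0926. By limma-voom Man2b1 became -0.0846 and Map1lc3b -0.0042, and with library totals Tpp1 -0.0362. Over the fits without 1 library, Gusb ran from -0.11 to 0.52, Atp6v1h from -0.18 to 0.22 and Atg5 from -0.402 to 0.0637 in that comparison. In Vortex against HSS, Lamp2 became 0.31 with the GC trend removed, and Gusb ran from -0.0474 to 0.595 and Atp6v1h from -0.0002 to 0.371 without 1 library.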
